A study of Mus musculus with 20 samples.

Results

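The genes of the major histocompatibility complex (MHC) and of antigen presentation were followed in brown adipose tissue (BAT) of mice, a fat tissue specialised in making heat. The members were all protein-coding genes whose symbol begins with H2-, the prefix of the mouse MHC, together with B2m, Tap1, Tap2, Tapbp, Nlrc5, Ciita and Cd74. They came to 41 of the 55471 genes in the count tables, and 37 of them lie on chromosome 17. Another 11 genes with an H2- symbol are annotated as pseudogenes and are no members.

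The mRNA libraries fall into 4 groups of 5: adipose-specific CEBPB KO BAT after 4 h of cold stress (KO_cold), the same genotype at room temperature (KO_RT), wild type BAT after 4 h of cold stress (WT_cold) and wild type BAT at room temperature (WT_RT). CEBPB is the transcription factor C/EBP beta. The labels give neither the Cre driver of the knockout nor the strain, age or sex of the mice, and do not say that libraries came from separate animals, so the p-values measure only the spread between libraries, which may be technical. The depot also holds immune, vascular and other cells, which an adipose-specific knockout is not meant to reach.

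MHC class I molecules sit on nearly all nucleated cells and show peptides from inside the cell to CD8 T cells and NK cells. Each consists of a heavy chain, such as H2-K1 or H2-D1, and the light chain beta-2 microglobulin, and is loaded in the endoplasmic reticulum with peptides that the TAP transporter brings in. MHC class II molecules are pairs of an alpha and a beta chain, made mainly by macrophages, dendritic cells and B cells, and show peptides from the endosome to CD4 T cells. The transactivators NLRC5 (class I) and CIITA (class II) and interferons switch these genes on, and adipocytes are known to carry class I and, when stimulated with interferon gamma, class II molecules.

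Both transactivators act through an enhanceosome that binds a conserved promoter module, whose Y box is bound by the factor NF-Y. RefSeq promoter windows, 250 bases before to 50 bases after the start site on GRCm38.p6, were used for 34 members. The exact Y box CTGATTGG, read on both strands, was in the windows of 18 of these 34 members, against 4.10% of 32851 windows of all genes. Of the windows below, those of H2-Aa and H2-Eb1 show the exact box in its class II orientation and those of H2-D1, H2-Q6, H2-T23 and Tap1 in the opposite one. Those of H2-Q10, which differed between KO and WT BAT at room temperature, and of B2m, the most abundant member per kilobase of exon, hold no exact box. Capitals mark exact Y boxes, interferon-stimulated response elements (GAAA, any 2 bases, GAAA) and C/EBP motifs (TTGCNNAA) on either strand, and each sequence runs 5′ to 3′ on the strand of the gene. The windows are chr17:34287774-34288073 (H2-Aa) on the minus strand, chr17:34305617-34305916 (H2-Eb1) on the plus strand, chr17:35262844-35263143 (H2-D1) on the plus strand, chr17:35424600-35424899 (H2-Q6) on the plus strand, chr17:35469839-35470138 (H2-Q10) on the plus strand, chr17:36032652-36032951 (H2-T23) on the minus strand, chr17:34187306-34187605 (Tap1) on the plus strand and chr2:122147437-122147736 (B2m) on the plus strand.
H2-Aa: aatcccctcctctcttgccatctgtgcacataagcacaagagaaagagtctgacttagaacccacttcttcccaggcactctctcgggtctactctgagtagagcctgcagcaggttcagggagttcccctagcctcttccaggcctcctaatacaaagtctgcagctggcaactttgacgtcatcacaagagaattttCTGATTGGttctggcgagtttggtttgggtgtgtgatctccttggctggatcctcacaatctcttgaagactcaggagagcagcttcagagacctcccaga
H2-Eb1: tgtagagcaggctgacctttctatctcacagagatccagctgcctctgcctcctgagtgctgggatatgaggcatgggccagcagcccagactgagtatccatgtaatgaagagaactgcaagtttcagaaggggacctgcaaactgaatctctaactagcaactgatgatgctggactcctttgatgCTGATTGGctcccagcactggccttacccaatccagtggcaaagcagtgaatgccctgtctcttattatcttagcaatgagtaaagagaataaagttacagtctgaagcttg
H2-D1: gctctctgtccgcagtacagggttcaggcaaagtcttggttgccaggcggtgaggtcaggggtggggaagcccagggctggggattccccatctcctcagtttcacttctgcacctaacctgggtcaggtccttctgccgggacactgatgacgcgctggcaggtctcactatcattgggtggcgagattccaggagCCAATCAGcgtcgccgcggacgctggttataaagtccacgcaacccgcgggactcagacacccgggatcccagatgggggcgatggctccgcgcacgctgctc
H2-Q6: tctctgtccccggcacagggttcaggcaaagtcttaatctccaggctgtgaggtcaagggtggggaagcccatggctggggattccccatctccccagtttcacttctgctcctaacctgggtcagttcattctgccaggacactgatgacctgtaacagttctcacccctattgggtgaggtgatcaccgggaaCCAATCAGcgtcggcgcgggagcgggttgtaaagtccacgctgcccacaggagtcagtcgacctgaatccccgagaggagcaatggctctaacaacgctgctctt
H2-Q10: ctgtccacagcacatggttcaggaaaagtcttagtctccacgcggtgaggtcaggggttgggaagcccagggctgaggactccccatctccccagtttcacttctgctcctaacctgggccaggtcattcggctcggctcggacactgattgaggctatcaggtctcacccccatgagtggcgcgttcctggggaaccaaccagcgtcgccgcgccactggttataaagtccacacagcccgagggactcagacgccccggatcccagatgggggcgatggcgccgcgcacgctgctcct
H2-T23: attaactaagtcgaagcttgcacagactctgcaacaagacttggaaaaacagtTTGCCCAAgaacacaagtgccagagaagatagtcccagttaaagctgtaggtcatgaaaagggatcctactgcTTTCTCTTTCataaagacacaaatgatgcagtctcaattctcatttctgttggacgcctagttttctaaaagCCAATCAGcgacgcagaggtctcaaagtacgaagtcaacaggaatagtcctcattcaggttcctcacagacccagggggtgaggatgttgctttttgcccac
Tap1: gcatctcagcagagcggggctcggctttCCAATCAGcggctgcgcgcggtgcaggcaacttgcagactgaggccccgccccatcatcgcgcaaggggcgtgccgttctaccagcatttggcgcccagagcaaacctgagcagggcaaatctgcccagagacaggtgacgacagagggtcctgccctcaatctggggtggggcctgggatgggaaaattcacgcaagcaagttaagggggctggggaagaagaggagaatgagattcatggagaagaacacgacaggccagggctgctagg
B2m: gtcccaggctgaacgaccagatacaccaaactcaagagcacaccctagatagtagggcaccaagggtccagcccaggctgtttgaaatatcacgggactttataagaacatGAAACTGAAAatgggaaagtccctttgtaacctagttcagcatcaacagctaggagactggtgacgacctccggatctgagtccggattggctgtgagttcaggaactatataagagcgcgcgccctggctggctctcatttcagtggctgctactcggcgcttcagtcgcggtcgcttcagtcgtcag

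All 3 class II chain genes with a window (H2-Aa, H2-Eb1 and H2-Eb2) had CTGATTGG on the strand of the gene, as had H2-Oa, 1 of 5 class II peptide exchange genes. Both class Ia heavy chains and 11 of 20 class Ib heavy chains had it in the opposite orientation, as CCAATCAG. In H2-Aa the box lay at positions -51 to -44 from the start site, in H2-D1 at -53 to -46 and in H2-T23 at -52 to -45. Other boxes lay elsewhere, in Tap1 at -222 to -215, in H2-Eb2 at -103 to -96, in H2-Q7 at -16 to -9 and in H2-K1 at -6 to 2. H2-Q10 had no exact Y box in this window. At positions -54 to -47 it had CCAATCAG with 7 of 8 bases matching and the substitution T5C, counted from 1 at the 5′ end of the motif, and H2-Q2 had the same substitution. An exact match to the interferon-stimulated response element as defined above was found in B2m, H2-T22 and H2-T23, against 3.44% of all windows. Other forms of this element were not searched, so a window without a match may still hold one. The C/EBP motif was in H2-T23 and H2-M10.2, against 10.8%. A gamma-activated sequence (TTCNNNGAA) was in H2-DMb2, H2-M3 and H2-M11, against 8.30%. The bare CCAAT, which overlaps the Y box, was in 31 of 34 windows against 37.4%. Promoters of Tap2, Nlrc5, Ciita, Cd74, H2-Ab1, H2-T24 and H2-Q1 were not used here.

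**Figure D1:**
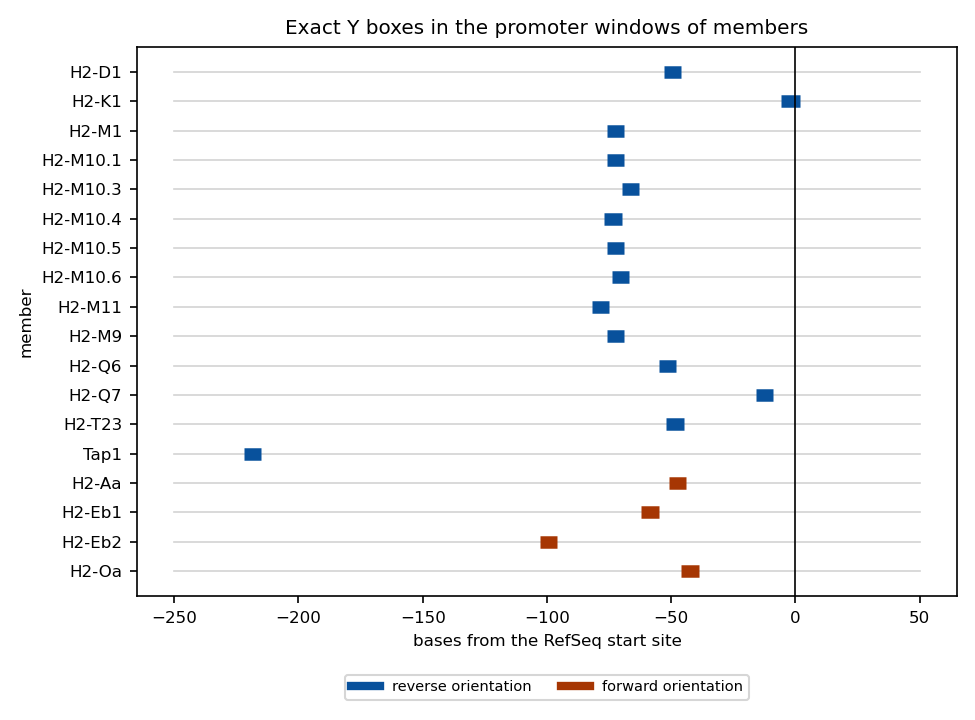
Exact Y boxes in the promoter windows of the 18 members that hold one, by distance from the RefSeq start site in bases, with the start site at 0. For H2-K1 and H2-M9, which have overlapping windows from a pair of start sites, the distance is from the downstream one. Blue bars are boxes in the reverse orientation and brown bars boxes in the forward orientation, and the brown ones belong to H2-Aa, H2-Eb1, H2-Eb2 and H2-Oa.

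Depth was 27.07 to 55.18 M gene counts per library. Of the 41 members, 27 passed the filter on low counts. The 14 others were not tested. H2-M10.1 to H2-M10.6, class Ib heavy chain genes known from the mouse vomeronasal organ, had 0 counts in all 20 libraries. H2-Eb2, H2-Oa, H2-M1, H2-M2, H2-M5, H2-M11, H2-T3 and H2-Ke6, a dehydrogenase gene that carries an MHC symbol only by its position, had at most 11 counts in a library. Values as CPM, gene counts scaled to library size, are used for each gene across libraries, and levels between genes are compared per kilobase of exon. On that scale B2m was at a mean level of 354 CPM per kb, H2-D1 at 91.7, H2-K1 at 56.3, Cd74 at 37.5, H2-Q10 at 25.8, Tapbp at 21.5 and H2-Eb1 at 21.2. The transactivators were low, with Nlrc5 at 0.818 and Ciita at 0.175 CPM per kb.

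Cebpb, the targeted gene, had 0.208 to 2.27 CPM in the 10 KO libraries and 75.5 to 167 CPM in the 10 WT libraries. The adipocyte gene Adipoq was at 617 CPM or more in every library. In bulk RNA fewer cells of a type cannot be told apart from less RNA per cell.

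Some libraries stood apart in the MHC. In 6 of them, KO_cold replicates 1 and 4, KO_RT replicate 5, WT_cold replicates 1 and 2 and WT_RT replicate 5, H2-Ea-ps had 450 to 606 reads, while the 14 other libraries had 0. H2-Ea-ps, at chr17:34341959-34344645 on GRCm38, encodes the class II E alpha chain in some mouse strains and is silent in strains of the b haplotype such as C57BL/6, from which the reference genome comes. H2-Q2 followed the same division, with 8 to 61 reads in the 6 libraries and 0 in the 14, as did H2-Bl, with 2 to 57 reads against 0. H2-Q1 had 8 to 38 reads in the 6 and 0 to 2 in the 14. WT_cold replicate 1 had the most H2-Ea-ps reads and the fewest of H2-Q1, H2-Q2 and H2-Bl among the 6. Only 3 genes in the whole tables had at least 3 reads in each of the 6 and 0 in all 14, namely H2-Ea-ps, H2-Q2 and Gm26619, a non-coding RNA gene on chromosome 13, and none showed the reverse. H2-Q1 and H2-Q2 passed the filter only through these libraries and passed no test. Whether the MHC alleles of these mice differ was not tested. Another library, KO_RT replicate 2, is described with the regulators. For calls in the cold that ended without the 6 libraries or without KO_RT replicate 2, and called values that moved by over 1.5 times, the value without them, or the range it lies in, is given below.

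**Figure D2:**
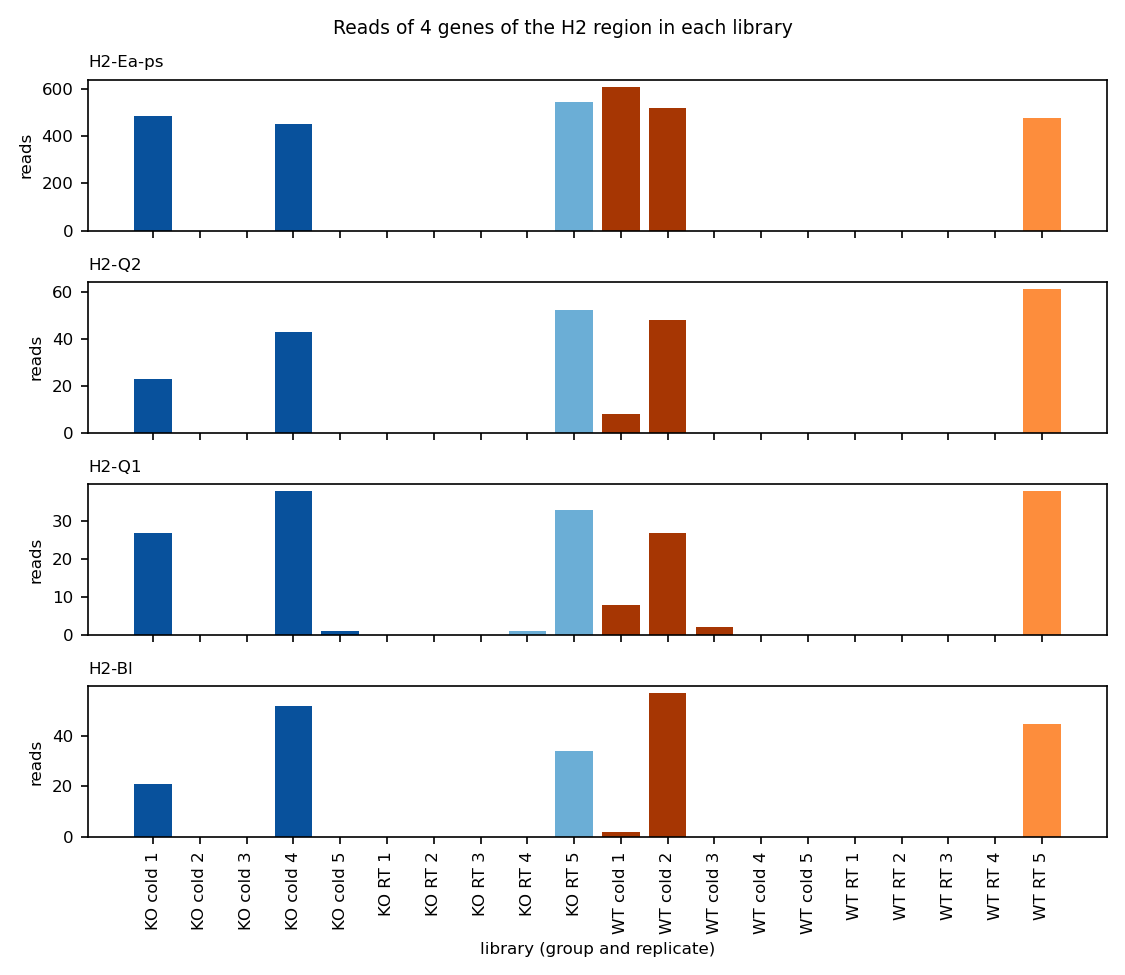
Reads of H2-Ea-ps, H2-Q2, H2-Q1 and H2-Bl in each of the 20 libraries, in groups from KO_cold on the left to WT_RT on the right. The same 6 libraries carry the reads in all 4 panels, with 450 to 606 reads of H2-Ea-ps.

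After 4 h of cold, Tap1, Tap2 and Tapbp, which serve the loading of class I peptides, were lower in both genotypes. In KO BAT 16 of the 27 tested members fell (59.3%, against 31.7% of all tested genes) and 1 rose (3.70%, against 27.5%). Without KO_RT replicate 2, 11 fell, and the share of all genes that fell in that fit was not computed. In WT BAT 9 fell (33.3%, against 30.2% of all tested genes) and 2 rose (7.41%, against 26.2%), so that the share that fell lay near that of all genes. All 9 that fell in WT BAT also fell in KO BAT: Tap1, Tap2, Tapbp, Nlrc5, Ciita, H2-DMa, H2-Q4, H2-T23 and H2-T24. The median log2 change of the 27 members was -0.60 in KO BAT, against -0.05 over all tested genes, and -0.38 in WT BAT, against -0.05. The groups did not overlap for 10 members in KO BAT and for 6 in WT BAT. The share of all tested genes without overlap was not computed, so these counts cannot be called particular to the members. The interaction, which asks whether the response to cold differed between KO and WT BAT, called no member in edgeR's quasi-likelihood test with Benjamini-Hochberg adjustment, 0 at an unadjusted p under 0.05 and 0 with DESeq2, against 0.427% of all tested genes higher and 0.315% lower.

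**Figure D3:**
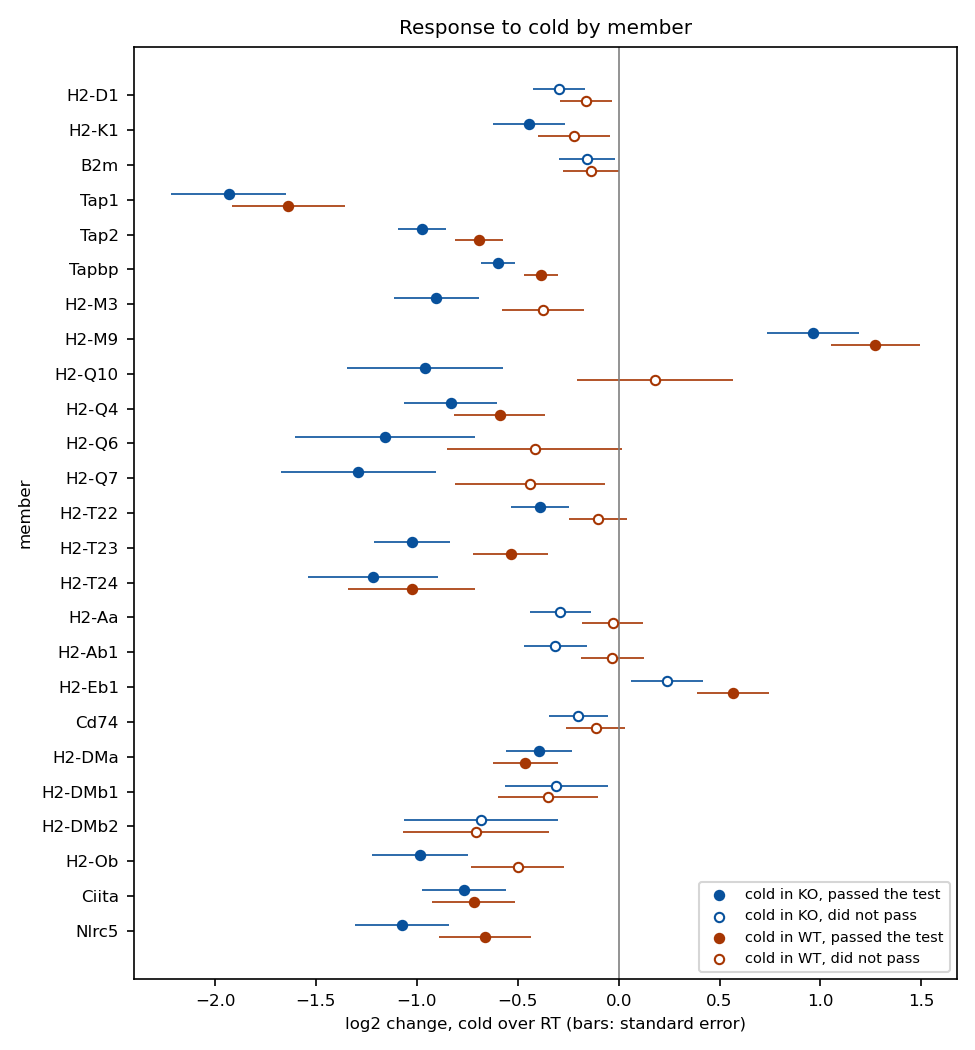
Log2 change from RT to cold of the 25 tested members other than H2-Q1 and H2-Q2, with KO BAT in blue and WT BAT in brown. Points are fitted changes, bars are standard errors and filled points passed the test. Tap1 has the lowest values in both genotypes, and only H2-M9 and H2-Eb1 have filled points above 0.

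The 3 peptide loading genes fell in both genotypes. Tap1 encodes a subunit of the TAP peptide transporter (chr17:34187553-34197225). It had 4.27, 3.45, 3.49, 2.72 and 3.41 CPM in KO_cold replicates 1 to 5, against 7.96, 27.4, 10.2, 10.5 and 10.2 CPM in KO_RT. In WT BAT it had 2.76, 2.96, 4.23, 2.75 and 4.89 CPM in the cold, against 10.6, 11.5, 11.99, 11.9 and 8.71 CPM at RT. Every cold library was below every RT library of its genotype, and KO_RT replicate 2 was far above the rest. The log2 change was -1.93 ± 0.29 (adjusted p = 1.2e-05) in KO BAT and -1.64 ± 0.28 (adjusted p = 6.4e-05) in WT BAT by edgeR's quasi-likelihood test, and -1.45 in KO BAT without KO_RT replicate 2. Tap2, the other subunit, had 15.97, 17.4, 13.2, 17.2 and 16.5 CPM in KO_cold, against 25.8, 42.3, 29.7, 28.6 and 31.6 CPM in KO_RT. Tap2 in WT BAT had 18.7, 16.5, 16.2, 21.4 and 21.5 CPM in the cold, against 31.6, 30.6, 33.8, 25.4 and 31.04 CPM at RT. These groups did not overlap either, and the changes were -0.97 ± 0.12 (adjusted p = 5.1e-07) in KO BAT and -0.69 ± 0.12 (adjusted p = 3.5e-05) in WT BAT by edgeR. Tapbp encodes tapasin, which bridges TAP and the class I heavy chain. Its level was 56.97, 63.4, 59.7, 59.7 and 60.3 CPM in KO_cold, against 78.5, 110.4, 96.5, 84.1 and 84.7 CPM in KO_RT. For WT BAT the Tapbp levels were 65.1, 69.2, 72.8, 70.1 and 73.7 CPM in the cold, against 91.8, 105, 101, 80.7 and 79.1 CPM at RT. The 5 KO_cold libraries lay within a narrow band below all others, and the edgeR changes were -0.60 ± 0.09 (adjusted p = 3.5e-06) in KO BAT and -0.38 ± 0.09 (adjusted p = 5.7e-04) in WT BAT.

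The classical class I molecules that these genes load gave smaller values. B2m, the light chain, had 273, 310.1, 273, 332 and 349 CPM in KO_cold, against 273, 486, 317, 256 and 382 CPM in KO_RT. In WT BAT B2m had 246, 256, 292, 242 and 317 CPM in the cold, against 267, 274, 315, 289 and 343 CPM at RT. The groups overlapped in both genotypes and neither change passed the edgeR test, with -0.16 ± 0.14 (adjusted p = 0.35) in KO BAT and -0.14 ± 0.14 (adjusted p = 0.42) in WT BAT. H2-D1, a classical heavy chain, had 193, 248, 199.6, 226 and 259 CPM in KO_cold, against 224, 386, 275, 232 and 263 CPM in KO_RT. Its WT levels were 191, 178, 213, 206 and 263 CPM in the cold, against 220.3, 235, 250.2, 222 and 247 CPM at RT. Again the ranges overlapped, and the changes of -0.29 ± 0.13 (adjusted p = 0.054) in KO BAT and -0.16 ± 0.13 (adjusted p = 0.3) in WT BAT did not pass edgeR's test. H2-K1, the other classical heavy chain, had 117, 163, 137, 137 and 162 CPM in KO_cold, against 153, 275, 202, 173 and 172 CPM in KO_RT. In WT BAT H2-K1 had 92.8, 121, 163, 172 and 198 CPM in the cold, against 164, 187, 194, 156 and 167 CPM at RT. H2-K1 fell by edgeR in KO BAT, -0.45 ± 0.18 (adjusted p = 0.039), and the WT value was -0.22 ± 0.18 (adjusted p = 0.31). The call on H2-K1 was lost in 12 of 19 alternatives, among them leaving out any of KO_cold replicates 1, 3, 4 and 5 or KO_RT replicates 2, 3, 4 and 5, with changes between -0.47 and -0.26, and leaving out the 6 libraries with H2-Ea-ps reads (-0.38). Within the cold groups, the libraries with H2-Ea-ps reads were the lowest for H2-K1 in WT BAT, at 92.8 and 121 CPM, against 163 to 198 CPM in the others.

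The nonclassical (class Ib) heavy chains, which have few alleles and specialised ligands, moved in both directions. H2-T23, known as Qa-1, presents leader peptides of other class I chains to NK cell receptors. It had 6.95, 6.35, 5.54, 7.21 and 8.33 CPM in KO_cold, against 10.7, 21.9, 12.1, 10.9 and 14.4 CPM in KO_RT. In WT BAT H2-T23 was at 7.49, 7.53, 10.1, 6.24 and 10.7 CPM in the cold, against 10.6, 11.03, 15.05, 11.5 and 12.9 CPM at RT. The KO groups did not overlap and the WT groups met at 10.7 and 10.6 CPM, and the edgeR changes were -1.02 ± 0.19 (adjusted p = 1.0e-04) in KO BAT and -0.54 ± 0.18 (adjusted p = 0.018) in WT BAT. The WT call was lost when any of WT_cold replicates 1, 2 and 4 or WT_RT replicate 3 was left out, with changes between -0.47 and -0.42, and without the 6 libraries (-0.41). H2-M3, which presents N-formylated peptides, had 1.104, 1.45, 1.15, 0.9896 and 1.48 CPM in KO_cold, against 1.93, 2.702, 1.84, 2.67 and 2.405 CPM in KO_RT. Its WT libraries had 1.66, 1.19, 1.73, 1.96 and 1.41 CPM in the cold, against 1.56, 2.06, 2.63, 2.81 and 1.24 CPM at RT. H2-M3 fell in KO BAT without overlap, -0.90 ± 0.21 (adjusted p = 8.9e-04) by edgeR, while the overlapping WT groups gave -0.38 ± 0.20 (adjusted p = 0.12). H2-T24 had 5.16, 1.96, 1.75, 4.17 and 2.73 CPM in KO_cold, against 5.08, 8.35, 7.099, 5.402 and 11.1 CPM in KO_RT. For WT BAT, H2-T24 had 2.47, 5.39, 3.23, 2.23 and 3.100 CPM in the cold, against 3.93, 6.19, 7.74, 6.32 and 9.55 CPM at RT. In 3 of the 4 groups the libraries with H2-Ea-ps reads were the highest for H2-T24, and the edgeR changes were -1.22 ± 0.32 (adjusted p = 0.0032) in KO BAT and -1.03 ± 0.32 (adjusted p = 0.0097) in WT BAT.

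Genes of the Q region also fell, and they share sequence. Of the 50-base stretches of H2-Q6, 32.0% recur in another gene, as do 26.4% of those of H2-Q7, 21.8% of H2-Q4 and 19.0% of H2-Q10. Their reads may therefore have been placed at the wrong gene or dropped as multimapping, and their values are uncertain to that extent. The same limit holds, with smaller shares, for H2-T23 (13.6%), H2-D1 (12.8%) and H2-K1 (9.63%). H2-Q6 and H2-Q7 encode the Qa-2 antigen. H2-Q7 had 1.79, 1.49, 1.45, 1.82 and 1.72 CPM in KO_cold, against 2.08, 9.58, 2.66, 1.88 and 4.07 CPM in KO_RT. The WT levels of H2-Q7 were 1.97, 2.01, 2.53, 1.44 and 3.43 CPM in the cold, against 2.47, 2.15, 3.74, 4.67 and 2.47 CPM at RT. All KO_cold libraries were below all KO_RT libraries, and the edgeR change was -1.29 ± 0.38 (adjusted p = 0.0073) in KO BAT and -0.44 ± 0.37 (adjusted p = 0.33) in WT BAT. H2-Q6 had 4.69, 1.57, 1.301, 4.21 and 2.401 CPM in KO_cold, against 3.69, 13.9, 3.21, 2.61 and 8.46 CPM in KO_RT. In WT BAT H2-Q6 had 3.77, 4.17, 3.91, 2.14 and 4.67 CPM in the cold, against 3.39, 3.504, 6.03, 6.19 and 5.93 CPM at RT. KO_RT replicate 2 was the highest library for both genes, the KO groups overlapped for H2-Q6, and H2-Q6 changed by -1.16 ± 0.45 (adjusted p = 0.033) in KO BAT and -0.42 ± 0.43 (adjusted p = 0.44) in WT BAT by edgeR. Without KO_RT replicate 2 the KO changes were -0.66 for H2-Q7 and -0.62 for H2-Q6, and the call on H2-Q6 was lost, as it was without KO_cold replicate 2, 3 or 5 or KO_RT replicate 5 (changes from -1.07 to -0.96). Without the 6 libraries, H2-Q7 changed by -1.38 and lost its call. H2-Q4 fell to 9.32 ± 2.17 CPM in KO_cold, against 16.6 ± 7.31 CPM in KO_RT, and to 9.86 ± 1.27 CPM in WT_cold, against 14.9 ± 2.89 CPM in WT_RT (mean ± SD over 5 libraries). Its edgeR changes were -0.83 ± 0.23 (adjusted p = 0.0044) in KO BAT and -0.59 ± 0.23 (adjusted p = 0.033) in WT BAT. The KO change was -0.51 without KO_RT replicate 2, and the WT call was lost when any WT_cold library or WT_RT replicate 3, 4 or 5 was left out, with changes between -0.60 and -0.47, and without the 6 libraries (-0.64). H2-T22, a ligand of gamma delta T cells that shares 34.5% of its 50-base stretches, mostly with H2-T10, was at 31.5 ± 4.62 CPM in KO_cold, against 41.3 ± 7.91 CPM in KO_RT, a change of -0.39 ± 0.14 (adjusted p = 0.024) by edgeR. That call was lost without KO_cold replicate 1 or 4, KO_RT replicate 2 or 3 (changes from -0.36 to -0.24) or the 6 libraries (-0.29), and the WT value was -0.10 ± 0.14 (adjusted p = 0.56).

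H2-M9 went the other way. Like the H2-M10 genes it is known from vomeronasal neurons, and its level here was low. It had 1.04, 1.33, 0.967, 0.959 and 0.8004 CPM in KO_cold, against 0.659, 0.535, 0.614, 0.395 and 0.386 CPM in KO_RT. In WT BAT H2-M9 had 1.25, 0.721, 1.44, 1.41 and 1.31 CPM in the cold, against 0.439, 0.514, 0.457, 0.671 and 0.429 CPM at RT. Every cold library was above every RT library of its genotype, and the edgeR changes were 0.96 ± 0.23 (adjusted p = 9.3e-04) in KO BAT and 1.27 ± 0.22 (adjusted p = 3.8e-05) in WT BAT. Its promoter held 1 exact Y box, in the class I orientation.

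**Figure D4:**
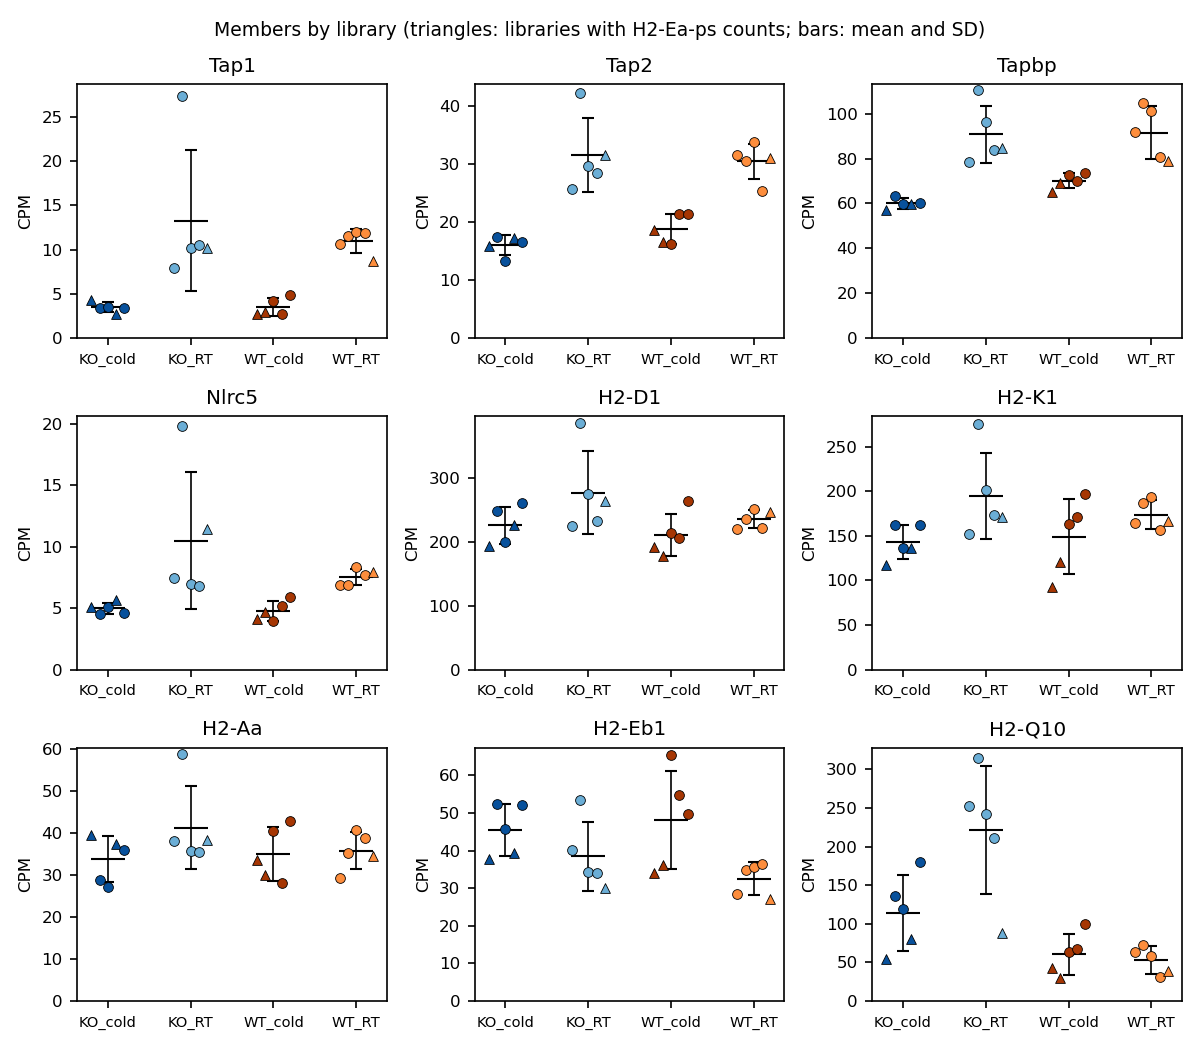
CPM of 9 members in each library, with KO_cold, KO_RT, WT_cold and WT_RT from left to right, and bars for the mean and SD over 5 libraries. Triangles are the 6 libraries with H2-Ea-ps reads. Tap1, Tap2 and Tapbp are lower in all cold libraries than in all RT libraries of the same genotype, and the mean of H2-Q10 is highest in KO_RT.

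Of the class II chains and the invariant chain, H2-Eb1 alone passed the test, and upward, while H2-DMa and H2-Ob of class II peptide exchange fell. H2-Aa, the alpha chain of the A molecule, had 39.5, 28.9, 27.2, 37.5 and 36.02 CPM in KO_cold, against 38.2, 58.8, 35.7, 35.5 and 38.3 CPM in KO_RT. Its WT libraries had 33.7, 30.1, 40.5, 28.1 and 42.8 CPM in the cold, against 29.4, 35.2, 40.8, 38.9 and 34.5 CPM at RT. Cold and RT ranges overlapped in both genotypes, and edgeR gave -0.29 ± 0.15 (adjusted p = 0.11) in KO BAT and -0.03 ± 0.15 (adjusted p = 0.89) in WT BAT. H2-Ab1, its beta chain, had 19.7, 17.8, 18.1, 23.8 and 19.7 CPM in KO_cold, against 22.96, 37.02, 20.6, 21.4 and 21.3 CPM in KO_RT. In WT BAT H2-Ab1 had 18.3, 18.3, 24.1, 16.8 and 25.2 CPM in the cold, against 16.4, 21.7, 24.8, 21.3 and 20.7 CPM at RT. These ranges overlapped too, with edgeR values of -0.31 ± 0.16 (adjusted p = 0.093) in KO BAT and -0.03 ± 0.16 (adjusted p = 0.88) in WT BAT. Cd74, the invariant chain that guides class II molecules to the endosome, had 67.5, 51.5, 50.3, 72.2 and 61.3 CPM in KO_cold, against 64.1, 96.5, 58.98, 60.4 and 67.8 CPM in KO_RT. For WT BAT, Cd74 had 58.6, 48.1, 70.2, 46.4 and 69.1 CPM in the cold, against 54.6, 60.4, 74.3, 64.9 and 62.00 CPM at RT. KO_RT replicate 2 was the highest library for all 3 genes, and the Cd74 changes of -0.20 ± 0.15 (adjusted p = 0.26) in KO BAT and -0.11 ± 0.15 (adjusted p = 0.54) in WT BAT did not pass edgeR's test. Without the 6 libraries with H2-Ea-ps reads Cd74 changed by -0.36 in KO BAT (adjusted p = 0.13).

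H2-Eb1, the beta chain of the E molecule and the partner of the H2-Ea product, rose in WT BAT. It had 37.7, 52.5, 45.7, 39.3 and 52.1 CPM in KO_cold, against 40.2, 53.6, 34.4, 34.2 and 29.96 CPM in KO_RT. In WT BAT H2-Eb1 had 34.2, 36.3, 65.5, 54.9 and 49.8 CPM in the cold, against 28.4, 34.8, 35.7, 36.4 and 27.05 CPM at RT. The libraries with H2-Ea-ps reads were the lowest in each group, at 34.2 and 36.3 CPM in WT_cold, against 49.8 to 65.5 CPM in its 3 other libraries. The edgeR change was 0.24 ± 0.18 (adjusted p = 0.27) in KO BAT and 0.57 ± 0.18 (adjusted p = 0.012) in WT BAT. Without the 6 libraries the changes were 0.30 in KO BAT (adjusted p = 0.10) and 0.75 in WT BAT (adjusted p = 7.8e-04). With the presence of H2-Ea-ps reads as a term in the model they were 0.33 in KO BAT (adjusted p = 0.017) and 0.63 in WT BAT (adjusted p = 8.4e-05), and without KO_RT replicate 2 the KO change was 0.42 (adjusted p = 0.047). When the mean of skeletal muscle markers entered the model, the WT change was 0.48 and the call was lost (adjusted p = 0.083 by edgeR).

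H2-DMa, a chain of H2-M, the exchange factor that helps peptides onto class II, fell to 2.55 ± 0.412 CPM in KO_cold, against 3.36 ± 0.792 CPM in KO_RT, and to 2.21 ± 0.417 CPM in WT_cold, against 3.06 ± 0.412 CPM in WT_RT. The edgeR changes were -0.39 ± 0.16 (adjusted p = 0.043) in KO BAT and -0.46 ± 0.16 (adjusted p = 0.02) in WT BAT. Both calls were weak. The KO call was lost in 15 of 19 alternatives, including leaving out KO_cold replicate 1, 2, 3 or 5 or KO_RT replicate 2, 4 or 5 (changes from -0.40 to -0.22) and leaving out the 6 libraries (-0.53). The WT call was lost without WT_cold replicate 4 or WT_RT replicate 3 or 5 (changes from -0.41 to -0.34) and without the 6 libraries (-0.44). H2-Ob, a chain of H2-O, which restrains H2-M and is known from B cells, had 0.537, 0.274, 0.5205, 0.402 and 0.415 CPM in KO_cold, against 1.07, 0.963, 0.853, 0.668 and 0.713 CPM in KO_RT. In WT BAT H2-Ob had 0.482, 0.417, 0.441, 0.337 and 0.596 CPM in the cold, against 0.537, 0.654, 0.7996, 0.825 and 0.429 CPM at RT. The KO groups did not overlap, and edgeR gave -0.98 ± 0.24 (adjusted p = 0.0012) in KO BAT and -0.50 ± 0.23 (adjusted p = 0.069) in WT BAT. H2-DMb1 and H2-DMb2, the beta chains of H2-M, share 22.7% and 24.8% of their 50-base stretches with each other or further genes, and neither passed the test.

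B cell markers fell in the cold in both genotypes. Over all tested genes 31.7% fell and 27.5% rose in KO BAT, and 30.2% fell and 26.2% rose in WT BAT. The summed level of the 10 B cell markers was 1.02 to 1.87 CPM in KO_cold, against 2.79 to 4.28 CPM in KO_RT, and 0.882 to 1.84 CPM in WT_cold, against 2.73 to 4.27 CPM in WT_RT. Of 7 tested markers, 6 fell in KO BAT and 7 in WT BAT, among them Ms4a1, which encodes CD20 (-1.89 ± 0.42 in KO BAT and -2.26 ± 0.41 in WT BAT). Without KO_RT replicate 2, 4 fell in KO BAT, and without the 6 libraries 4 fell in KO BAT and 6 in WT BAT. Macrophage and monocyte markers summed to 158 to 194 CPM in KO_cold, against 130.4 to 189 CPM in KO_RT, and to 139 to 194 CPM in WT_cold, against 116 to 149.7 CPM in WT_RT, with 4 of 12 higher and 1 lower in KO BAT and 3 of 12 higher and 1 lower in WT BAT. Dendritic cell markers summed to 27.7 to 35.2 CPM in KO_cold, against 26.5 to 33.9 CPM in KO_RT, and to 24.3 to 30.8 CPM in WT_cold, against 26.5 to 42.0 CPM in WT_RT, with 3 of 7 lower in KO BAT and 0 of 7 in WT BAT. In KO BAT 1 was lower without KO_RT replicate 2 and 0 without the 6 libraries. The part of these cells in the class II values was not tested. Skeletal muscle markers summed to 46.7 to 52.0 CPM in KO_cold, against 87.4 to 709 CPM in KO_RT, and to 50.9 to 92.7 CPM in WT_cold, against 62.1 to 1592 CPM in WT_RT. In KO_cold the muscle markers Ckm and Myh4 were at 0 in every library. The mean of these markers, as log2 CPM, was -2.28 to -1.95 in KO_cold, against 1.05 to 4.97 in KO_RT. As these groups did not overlap, this mean and cold cannot be told apart in KO BAT. With the mean of these markers in the model, 11 members fell in KO BAT and 10 in WT BAT. That fit called 6353 of 15233 tested genes in either direction in KO BAT and 7226 in WT BAT, and these calls were not split by direction. The main fit called 4195 genes higher and 4824 lower in KO BAT, and 3997 higher and 4597 lower in WT BAT.

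Both transactivators fell in the cold. Nlrc5 (chr8:94434356-94527272) had 5.103, 4.51, 5.06, 5.66 and 4.62 CPM in KO_cold, against 7.42, 19.8, 6.96, 6.798 and 11.4 CPM in KO_RT. Its WT levels were 4.09, 4.703, 3.94, 5.14 and 5.94 CPM in the cold, against 6.88, 6.84, 8.37, 7.66 and 7.96 CPM at RT. No cold library reached an RT library of its genotype, and the edgeR changes were -1.07 ± 0.23 (adjusted p = 5.2e-04) in KO BAT and -0.66 ± 0.23 (adjusted p = 0.019) in WT BAT. The KO change was -0.68 without KO_RT replicate 2, and the WT change was -1.01 with the mean of skeletal muscle markers in the model. The WT call was lost without WT_cold replicate 1 or 3 or WT_RT replicate 3 (changes from -0.60 to -0.58) and without the 6 libraries (-0.56). Ciita had 1.55, 1.22, 0.929, 1.27 and 1.72 CPM in KO_cold, against 2.05, 3.45, 1.88, 1.88 and 2.17 CPM in KO_RT. In WT BAT Ciita had 1.34, 0.891, 1.32, 1.01 and 1.19 CPM in the cold, against 1.76, 2.27, 2.399, 1.73 and 1.31 CPM at RT. The WT groups overlapped only through WT_RT replicate 5 and the KO groups did not overlap, with edgeR changes of -0.77 ± 0.21 (adjusted p = 0.0031) in KO BAT and -0.72 ± 0.21 (adjusted p = 0.0052) in WT BAT. With the mean of skeletal muscle markers in the model the KO change of Ciita was -0.73 and its call was lost (adjusted p = 0.062 by edgeR). That mean cannot be told apart from cold in KO BAT.

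KO_RT replicate 2 was the highest KO_RT library for Tap1, Nlrc5, Ciita, Cd74, H2-Aa, H2-Ab1 and H2-Q7. The summed level of 19 interferon-stimulated genes was 703 CPM in it, against 125 to 230.4 CPM in the other KO_RT libraries, 78.0 to 102.5 CPM in KO_cold, 91.4 to 164 CPM in WT_cold and 133 to 220.0 CPM in WT_RT. Of these 19 genes 17 fell in the cold in KO BAT, against 31.7% of all tested genes, and 3 in WT BAT, against 30.2%. None of the 19 genes rose. Among them Cxcl10, a T cell attractant, changed by -3.88 ± 1.11 in KO BAT, and Gbp5, a guanylate-binding protein, by -2.57 ± 0.47 in KO BAT and -1.51 ± 0.44 in WT BAT. The KO changes of both include KO_RT replicate 2, and their sizes without it are not given here. Without KO_RT replicate 2, 10 fell in KO BAT. Without the 6 libraries with H2-Ea-ps reads, 10 fell in KO BAT and 1 in WT BAT. Without KO_RT replicate 2, 11 members fell in the cold in KO BAT and 2 rose. That fit called 8530 of 15342 tested genes in either direction. These calls were not split by direction, so the members that fell cannot be set against a like share.

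**Figure D5:**
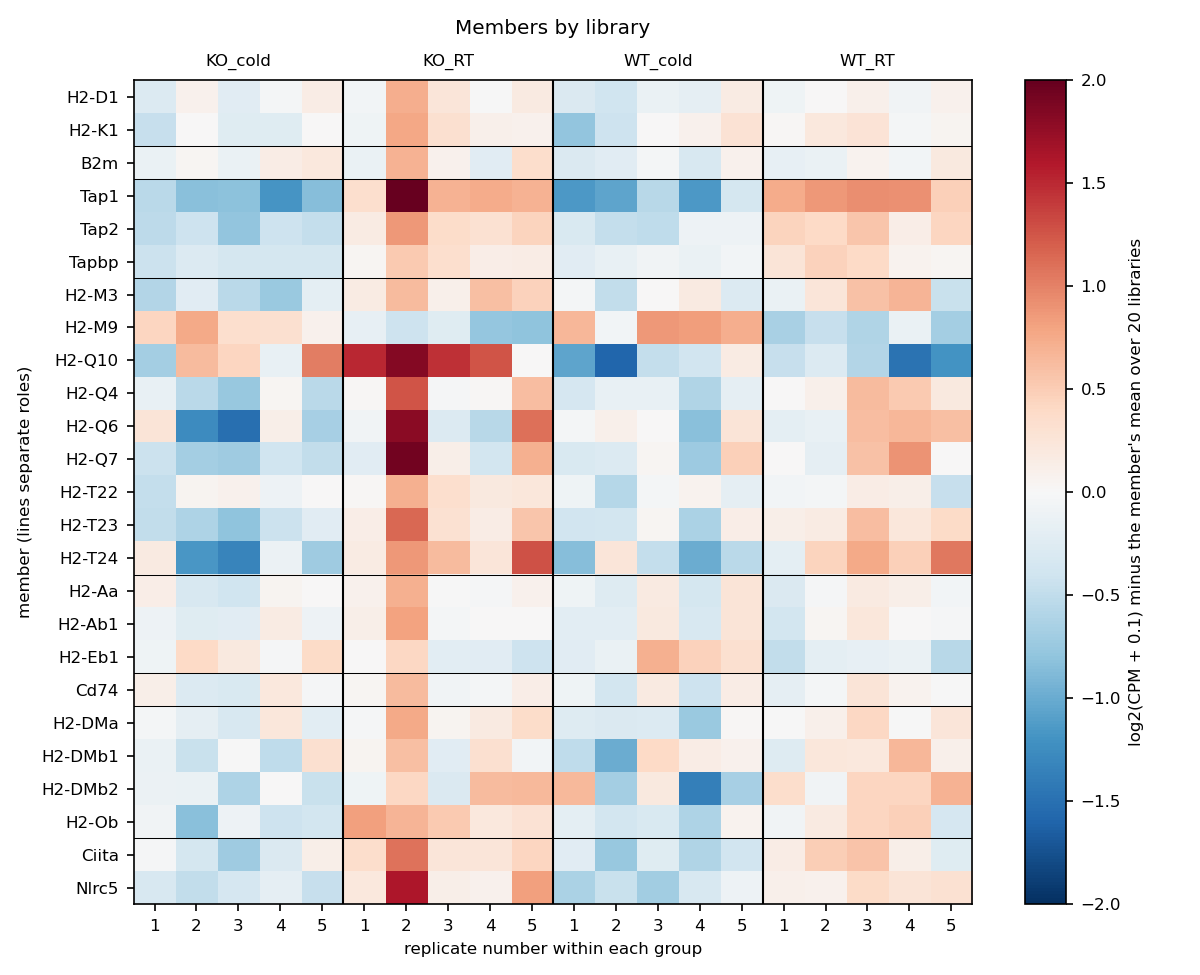
The 25 tested members other than H2-Q1 and H2-Q2 in each of the 20 libraries, as log2(CPM + 0.1) minus the mean of the member over all libraries, with red above and blue below the mean. Columns are replicates 1 to 5 of KO_cold, KO_RT, WT_cold and WT_RT, and lines separate class Ia chains, the light chain, peptide loading, class Ib chains, class II chains, the invariant chain, peptide exchange and regulators. KO_RT replicate 2 is red in all rows but that of H2-M9, and H2-Q10 is deepest red in KO_RT replicates 1 to 4.

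The knockout changed 1 member, H2-Q10. It encodes a class Ib chain that is secreted rather than held at the cell surface and is known in mice mainly from the liver (chr17:35470089-35474563). H2-Q10 had 252, 314, 243, 211 and 88.7 CPM in KO_RT, against 64.1, 73.1, 58.6, 31.5 and 38.4 CPM in WT_RT. In the cold it had 55.1, 136, 119, 79.8 and 180.3 CPM in KO_cold, against 42.6, 29.2, 63.4, 67.3 and 99.2 CPM in WT_cold. At RT the lowest KO library was above the highest WT library, and in the cold the groups overlapped. At RT the mean was 222 ± 83.3 CPM in KO BAT and 53.2 ± 17.6 CPM in WT BAT (SD, n = 5 each), a log2 change of 2.06 ± 0.40 (adjusted p = 0.0086) by edgeR. H2-Q10 was the only member among the 1.38% of tested genes that were higher in KO BAT at RT, and none was among the 1.32% that were lower. Its call at RT held in all 19 alternatives, with changes between 1.90 and 2.26.

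In the cold the H2-Q10 mean was 114 ± 48.9 CPM in KO BAT and 60.4 ± 26.7 CPM in WT BAT (SD, n = 5 each), and the change of 0.92 ± 0.39 (adjusted p = 0.19) did not pass edgeR's test. In KO_cold, KO_RT and WT_cold the libraries with H2-Ea-ps reads were the lowest for H2-Q10. Among the libraries with such reads, H2-Q10 had 55.1 and 79.8 CPM in KO_cold, against 29.2 and 42.6 CPM in WT_cold. Among the libraries without them it had 119 to 180.3 CPM in KO_cold, against 63.4 to 99.2 CPM in WT_cold. At RT the single libraries with such reads had 88.7 CPM in KO BAT and 38.4 CPM in WT BAT, and those without them had 211 to 314 CPM in KO BAT and 31.5 to 73.1 CPM in WT BAT. With the presence of H2-Ea-ps reads as a term, the changes were 1.97 at RT (adjusted p = 9.1e-05) and 0.92 in the cold (adjusted p = 0.018), and without the 6 libraries they were 2.17 at RT (adjusted p = 0.0015) and 0.92 in the cold (adjusted p = 0.10). The term and the omission were chosen after these values were seen. Cold itself changed H2-Q10 by -0.96 ± 0.39 (adjusted p = 0.042) in KO BAT and 0.18 ± 0.39 (adjusted p = 0.71) in WT BAT by edgeR, and the interaction was -1.14 ± 0.55 (adjusted p = 0.5). Without the 6 libraries the cold changes were -0.81 in KO BAT (adjusted p = 0.026) and 0.43 in WT BAT (adjusted p = 0.21). The KO call on cold was lost when any of KO_cold replicates 1 to 4 or KO_RT replicates 1 to 4 was left out, with changes between -1.001 and -0.75. It was also lost with the mean of skeletal muscle markers in the model (-0.38), which cannot be told apart from cold in KO BAT. Of 3 liver genes, looked at after these values were seen, Alb had at most 0.0733 CPM in a KO library and 0.152 CPM in a WT library. Ttr was at 0 in all KO libraries and at most 0.0505 CPM in a WT library. Apoa2 was detected in every library, at 0.267 to 0.853 CPM in KO BAT and 0.118 to 0.724 CPM in WT BAT.

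No member passed the edgeR test between KO and WT BAT in the cold, against 3.51% of tested genes higher and 4.19% lower. Only Tapbp and H2-Q10 had an unadjusted p under 0.05, and DESeq2 called 0. Tapbp was at 57.0 to 63.4 CPM in KO_cold, against 65.1 to 73.7 CPM in WT_cold, so that the groups did not overlap, with a change of -0.23 ± 0.09 (adjusted p = 0.12) by edgeR. Fitted on these groups alone, the Tapbp change was -0.22 (adjusted p = 0.027). At RT Tapbp differed by -0.01 ± 0.08 between KO and WT BAT.

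Other genes of the pathways, taken from lists, changed in both directions in the cold. Over all tested genes 31.7% fell and 27.5% rose in KO BAT, and 30.2% fell and 26.2% rose in WT BAT. The counts of the lists, here and in the next paragraph, are to be read beside these shares. Of 10 genes that supply and load class I peptides, 7 fell and 3 rose in KO BAT, and 6 fell and 3 rose in WT BAT. Psmb9, a subunit of the immunoproteasome encoded beside Tap1, changed by -1.83 ± 0.24 in KO BAT and -1.01 ± 0.23 in WT BAT, and Tapbpl, the peptide editor TAPBPR, by -1.04 ± 0.13 in KO BAT and -0.78 ± 0.13 in WT BAT. The 3 that rose were the general chaperones of the endoplasmic reticulum Canx, Calr and Pdia3, with Canx at 0.86 ± 0.06 in KO BAT and 0.71 ± 0.06 in WT BAT. The median of the list was -0.47 in KO BAT and -0.28 in WT BAT. Of 13 regulators of MHC transcription, 5 fell and 3 rose in KO BAT, and 4 fell and 3 rose in WT BAT, near the shares of all genes. Rfx5, a subunit of the factor that binds beside the Y box, changed by -0.57 ± 0.15 in KO BAT and -1.005 ± 0.15 in WT BAT, and Nfya, a subunit of NF-Y, by 0.81 ± 0.08 in KO BAT and 0.50 ± 0.08 in WT BAT. Irf1, an interferon-induced activator of class I genes, changed by -0.53 ± 0.17 in KO BAT and -0.49 ± 0.17 in WT BAT.

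Of 11 genes for interferon receptors and signalling, 6 fell and 1 rose in KO BAT, and 3 fell and 1 rose in WT BAT. The kinase gene Tyk2 changed by -1.02 ± 0.09 in KO BAT and -1.06 ± 0.09 in WT BAT, and the interferon gamma receptor gene Ifngr2 by -0.86 ± 0.10 in KO BAT and -0.76 ± 0.10 in WT BAT. Of 6 genes of class II processing and turnover, 2 fell and 1 rose in KO BAT, and 1 fell and 2 rose in WT BAT, with the protease gene Lgmn at -0.41 ± 0.09 in KO BAT and -0.38 ± 0.08 in WT BAT. Marchf1 and Marchf8 were not matched by these symbols. Of 6 tested class I-like genes outside the MHC, 3 fell and 2 rose in each genotype, with Mr1, which presents vitamin metabolites, at -1.04 ± 0.16 in KO BAT and -0.66 ± 0.16 in WT BAT. Of 7 tested genes in a list of MHC receptors and related immune receptors, 2 fell in KO BAT and 1 in WT BAT. Lilra5, one of the related receptors, was at -0.85 ± 0.25 in KO BAT and -0.99 ± 0.25 in WT BAT.

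Between KO and WT BAT few genes of these lists passed. Cd1d1, which presents lipids to NKT cells, was lower in KO BAT both at RT, -0.60 ± 0.12 (adjusted p = 0.0053), and in the cold, -0.75 ± 0.12 (adjusted p = 2.3e-04), by edgeR. Psme1, a subunit of the PA28 proteasome activator, was lower at RT, -0.28 ± 0.07 (adjusted p = 0.036), and in the cold, -0.34 ± 0.07 (adjusted p = 0.0047), by edgeR. In the cold Psme2, Erap1, Ifngr1, Irf4 and Rfxank were also lower in KO BAT, with changes of -0.37 ± 0.09, -0.25 ± 0.07, -0.46 ± 0.10, -1.40 ± 0.36 and -0.31 ± 0.09. At RT the protease gene Ctsl was also lower in KO BAT, -0.28 ± 0.07 (adjusted p = 0.027) by edgeR. No gene of the 7 lists was higher in KO BAT in either condition, and none passed the interaction test. Over all tested genes 1.38% were higher and 1.32% lower in KO BAT at RT, and 3.51% higher and 4.19% lower in the cold.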

How the data were processed

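Brown adipose tissue mRNA was measured in 20 libraries, 5 in each of 4 groups. Per the labels' protocols, libraries were made with a stranded mRNA kit. The submitters' processing notes name Trim Galore 0.6.0, STAR 2.7.8a and the build GRCm38.p6. The annotation release is not given in the sources used here. The deposited values are read counts per gene, 1 table per library, with 4 entries that name no gene (3.86% to 5.66% of reads unmapped, 18.3% to 21.4% at several places, 3.14% to 4.55% in no gene, 1.02% to 1.16% ambiguous). The column for the reverse strand, which held 94.5% to 95.7% of stranded counts, was used. Intervals and p-values do not cover bias of alignment.

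Genes were kept by filterByExpr (count minimum 10, total minimum 15), which left 15233. They were scaled by TMM and fitted with the robust quasi-likelihood model of edgeR 4.0.16 in R 4.3.3, with 1 mean per group and 16 residual degrees of freedom. Benjamini-Hochberg adjustment ran over the whole table, and the threshold was 0.05. The comparisons were cold in KO, cold in WT, KO against WT at RT and in the cold, and the interaction. The procedure was tested on simulated data. Gene names, positions and exon lengths came from GENCODE M21, and promoter windows from RefSeq on GRCm38.p6. Motifs were searched on both strands.

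The members and lists were chosen with earlier results of these data known. The members given in every library were 12 fixed by name and the 8 of largest change among those that passed a test. Alternatives were DESeq2 1.42.0, relative log expression normalization, no filter, a replicate block, counts of both strands, the mean of skeletal muscle markers in the model, only the groups compared, and each library left out. After the data were seen, 2 were added: without the 6 libraries with H2-Ea-ps reads, and their presence as a term.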

Additional observations from a re-analysis of the deposited data

Results flagged for a closer look

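Of 80 sets of 5 libraries, 20 members in 4 groups, 7 had a library whose gap to its nearest neighbour exceeded the 95% limit of Dixon's test, which chance passes in about 1 of 20 sets. KO_RT replicate 2 gave 6 of the 7. It was the highest KO_RT library for Tap1 (27.4 CPM, next 10.5 CPM), Ciita (3.45 CPM, next 2.17 CPM), Cd74 (96.5 CPM, next 67.8 CPM), H2-Aa (58.8 CPM, next 38.3 CPM), H2-Ab1 (37.0 CPM, next 23.0 CPM) and H2-Q7 (9.58 CPM, next 4.07 CPM). The 19 interferon-stimulated genes summed to 703 CPM in the same library, against 125 to 230.4 CPM in the other KO_RT libraries. What set this library apart was not tested. The remaining set was H2-M9 in WT_cold, where replicate 2, one of the libraries with H2-Ea-ps reads, was the lowest at 0.721 CPM, against 1.25 CPM in the next.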

How the results depend on the processing

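Of 29 calls of a member in a comparison, 17 held in every alternative and 12 were lost in 1 or more, 7 further calls appeared only in an alternative, and 0 changes turned round. In cold in WT, 1 member rose when the mean of skeletal muscle markers entered the model. There 5 to 9 fell when 1 library was left out, with 5 falling without WT_RT replicate 3, and 5 fell without the 6 libraries with H2-Ea-ps reads. Those 2 fits called 8167 of 15405 and 7169 of 15458 tested genes in either direction. For the alternatives the calls over all genes were not split by direction. The counts of members that fell or rose in them therefore have no like share beside them. In cold in KO, 1 to 2 rose and 11 to 16 fell when 1 library was left out, with 2 rising without KO_RT replicate 2, and 2 rose with the presence of H2-Ea-ps reads as a term. In the cold 1 member was lower in KO BAT when only these groups were fitted (Tapbp), and 1 was higher with the presence of H2-Ea-ps reads as a term (H2-Q10). Other scaling moved the median of all genes by less than 0.1. H2-DMb2 in WT BAT was called lower without WT_cold replicate 1 (-1.13), H2-Ob in WT BAT without WT_cold replicate 5 or WT_RT replicate 5 (-0.59 in both), H2-M3 in WT BAT without WT_RT replicate 5 (-0.48), and H2-D1 in KO BAT without KO_RT replicate 1 or 4 (down to -0.33).

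Same-numbered libraries did not deviate together: their correlations lay between -0.18 and 0.27 over the 4 pairings of groups, and in none did all 5 exceed 0.1. With the replicate block 14 members fell in KO BAT and 8 in WT BAT. That fit called 8958 of 15233 tested genes in either direction in KO BAT and 8491 in WT BAT. The block ended the calls on H2-Q4 in WT BAT (adjusted p = 0.051) and on H2-DMa, H2-Q10 and H2-Q6 in KO BAT, and added H2-D1 in KO BAT (-0.29, adjusted p = 0.034).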

Other observations

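Genes with an H2- symbol that are annotated as pseudogenes are given here for the 6 libraries with H2-Ea-ps reads and the 14 without. H2-K2 had 0.876 to 7.15 CPM in the 6 and 0.297 to 1.60 CPM in the 14. H2-T10, which shares sequence with H2-T22, had 0.241 to 1.93 CPM in the 6 and 0.196 to 0.593 CPM in the 14. In both genes WT_cold replicate 1, the lowest of the 6, lay within the range of the 14, and the other 5 lay above it. H2-Q5 had 0.597 to 1.37 CPM in the 6 and 0.372 to 2.51 CPM in the 14, so that its ranges overlapped as well. The 6 libraries spread over all 4 groups, 2 in KO_cold, 1 in KO_RT, 2 in WT_cold and 1 in WT_RT. These sets were defined from the reads and are not groups of the study, and no test was made between them.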
